A study of Mus musculus with 12 samples.

Results

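Genes of haemoglobin and haem are described: Hbb-b1 and Hbb-b2, which encode the major and minor adult beta globin chains, Hba-a1, which encodes an adult alpha globin chain, and Alas2, the erythroid form of 5-aminolevulinate synthase. They were picked by symbol, as 4 of 30789 symbols on a mouse Illumina bead array, with earlier results of the same data in view. Their differences between spleen and peritoneum and between TCL1-192 and wild type cells were known when they were picked, so these differences are given as a description with no test. The 4 symbols had 14 of 45281 probes, 11 for Hbb-b1 and 1 for each of the others, and all 14 passed the filter on detection.

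Gene expression had been measured on 12 arrays. The labels name every sample as chronic lymphocytic leukaemia (CLL), wild type ones included, and give a mixed C3H and C57BL/6 background for all. The cells were split into binders (PtC+) and non-binders (PtC-) of phosphatidylcholine, a membrane lipid to which the antibodies of many B-1 B cells bind. TCL1-192 cells came from the peritoneal cavity and the spleen, and each of their 4 groups (PtC+ or PtC-, in either tissue) had 2 arrays. Wild type and young TCL1 peritoneal cells had 1 PtC+ and 1 PtC- array each. Mice that express the TCL1 oncogene in B cells develop a leukaemia that resembles human CLL. No source used here gives the meaning of 192, the age behind "young", the promoter of the transgene, the donor animals, any pooling or the sort gates, so the spread between replicate arrays may be technical.

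Haemoglobin is a tetramer of alpha-type and beta-type globin chains, each holding a haem group. Haem is built by a chain of enzymes, of which the first, 5-aminolevulinate synthase, is encoded by Alas1 in most cells and by Alas2 in developing red cells. Globin and Alas2 transcripts are among the most abundant of erythroblasts and reticulocytes, the young red cells that still hold RNA, and B cells are not known for them. In erythroid cells these genes are read through promoters and enhancers that bind GATA1 (GATA motifs), KLF1 (CACCC motifs) and, at many globin promoters, factors of the CCAAT and TATA boxes.

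Promoter windows of 300 bases (250 before and 50 after the annotated start) are shown as a description. The 4 genes were picked with their tissue and genotype differences known, so no shared control is read from their likeness across the arrays. RefSeq's table for the GRCm38.p6 build held Hba-a1 and Alas2, 2 of the 4 symbols, while Hbb-b1 and Hbb-b2 had no entry. The beta globin window shown instead is that of Hbb-bs, an adult beta globin gene of the haplotype in that assembly. In RefSeq, Hbb-bs shares the synonyms Hbbt1 and Hbbt2 with Hbb-b1, and Hbbt2 also with Hbb-b2. Its window is a stand-in, since the probes were not matched to any of these genes. Each is printed 5′ to 3′ on the gene's strand, at chr7:103827879-103828178 (minus strand) for Hbb-bs, chr11:32283422-32283721 (plus strand) for Hba-a1 and chrX:150547167-150547466 (plus strand) for Alas2. Capitals mark the motifs searched on both strands: the GATA site in 4 spellings (AGATAA or AGATAG or TGATAA or TGATAG), the CACCC box, the CCAAT box and the TATA box (ATATAA).
Hbb-bs: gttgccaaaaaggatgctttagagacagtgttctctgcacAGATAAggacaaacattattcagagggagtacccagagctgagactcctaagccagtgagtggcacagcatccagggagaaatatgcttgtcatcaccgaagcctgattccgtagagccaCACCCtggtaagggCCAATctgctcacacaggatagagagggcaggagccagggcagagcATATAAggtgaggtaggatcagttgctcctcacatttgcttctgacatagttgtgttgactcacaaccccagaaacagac
Hba-a1: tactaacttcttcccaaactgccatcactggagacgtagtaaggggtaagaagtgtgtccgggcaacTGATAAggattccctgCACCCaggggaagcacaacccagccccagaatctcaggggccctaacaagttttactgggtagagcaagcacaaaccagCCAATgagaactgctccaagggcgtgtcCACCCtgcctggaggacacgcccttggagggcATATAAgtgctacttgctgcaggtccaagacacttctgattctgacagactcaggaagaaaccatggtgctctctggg
Alas2: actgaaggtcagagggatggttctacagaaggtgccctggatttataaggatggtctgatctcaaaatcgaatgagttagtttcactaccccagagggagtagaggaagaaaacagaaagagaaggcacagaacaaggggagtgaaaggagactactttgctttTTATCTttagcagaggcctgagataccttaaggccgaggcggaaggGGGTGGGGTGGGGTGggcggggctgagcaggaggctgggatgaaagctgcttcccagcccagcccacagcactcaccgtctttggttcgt

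The Hbb-bs and Hba-a1 windows each held all 4 kinds of motif, with 1 GATA motif, 1 CCAAT and 1 TATA box in each, 1 CACCC in Hbb-bs and 2 in Hba-a1. Hbb-bt, the other adult beta globin gene of that assembly, is not printed, and its window held no GATA motif, 3 CACCC, 3 CCAAT and 1 TATA box. The Alas2 window held 1 GATA motif and 3 CACCC motifs, all on the opposite strand, and no match to CCAAT or ATATAA. Among 32851 promoter windows of the same length, 29.8% held the GATA motif, 57.5% CACCC, 37.4% CCAAT, 9.82% ATATAA and 0.773% all 4. These matches describe the letters and show no binding. Globin genes come in near-identical copies: the Hba-a1 window shared an unbroken run of 297 bases with that of its neighbour Hba-a2, whose start lies 12820 bases away. A probe named for Hba-a1 or Hbb-b1 may therefore report more than 1 copy, and the probes' own sequences were not used here.

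The array labelled PtC- peritoneal TCL1-192 replicate 2 stood apart, with 10711 probes detected (detection p under 0.05) at a median signal of 219.2, against 13825 to 15192 probes at medians of 99.4 to 121.4 on the others. The comparisons of the 4 genes that use it are also given without it. The number of arrays limits the precision. All 12 arrays carried B cell genes, with 6 or 7 of 9 markers detected on each, among them Cd79b, Blk and Fcrla. Pax5 and Cr2, also in that set, were undetected on every array.

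Hbb-b1 was detected on every array and spanned the widest range of the 4 genes. Its most intense probe gave signals (linear, before normalization) of 24990 and 16060 on the PtC+ peritoneal TCL1-192 arrays and 13470 and 13420 on the PtC- ones. In TCL1-192 spleen the signals were 937 and 597.3 in PtC+ cells and 815.8 and 673.9 in PtC- cells. The 4 peritoneal arrays all lay above the 4 splenic ones. In wild type peritoneum the probe gave 148.1 in PtC+ and 196.3 in PtC- cells, the former barely above background at a detection p of 0.0246. Young TCL1 peritoneum gave 306.3 in PtC+ and 1651 in PtC- cells, so both arrays lay above both wild type arrays and below the TCL1-192 peritoneal ones.

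On the normalized log2 scale the group means of Hbb-b1 in TCL1-192 peritoneum were 14.1 ± 0.44 (SD, n = 2) in PtC+ and 13.7 ± 0.16 (SD, n = 2) in PtC- cells. They were 9.32 ± 0.33 and 9.2 ± 0.3 (SD, n = 2 each) in PtC+ and PtC- cells of the spleen. Ordered by level, wild type PtC+ (5.69), wild type PtC- (6.83) and young TCL1 PtC+ (7.83) came lowest. The splenic TCL1-192 arrays followed at 8.99 to 9.56, then young TCL1 PtC- at 10.59 and the peritoneal TCL1-192 arrays at 13.59 to 14.41. The PtC+ and PtC- groups overlapped within each TCL1-192 tissue, and the lone wild type and young TCL1 arrays have no spread of their own.

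**Figure D1:**
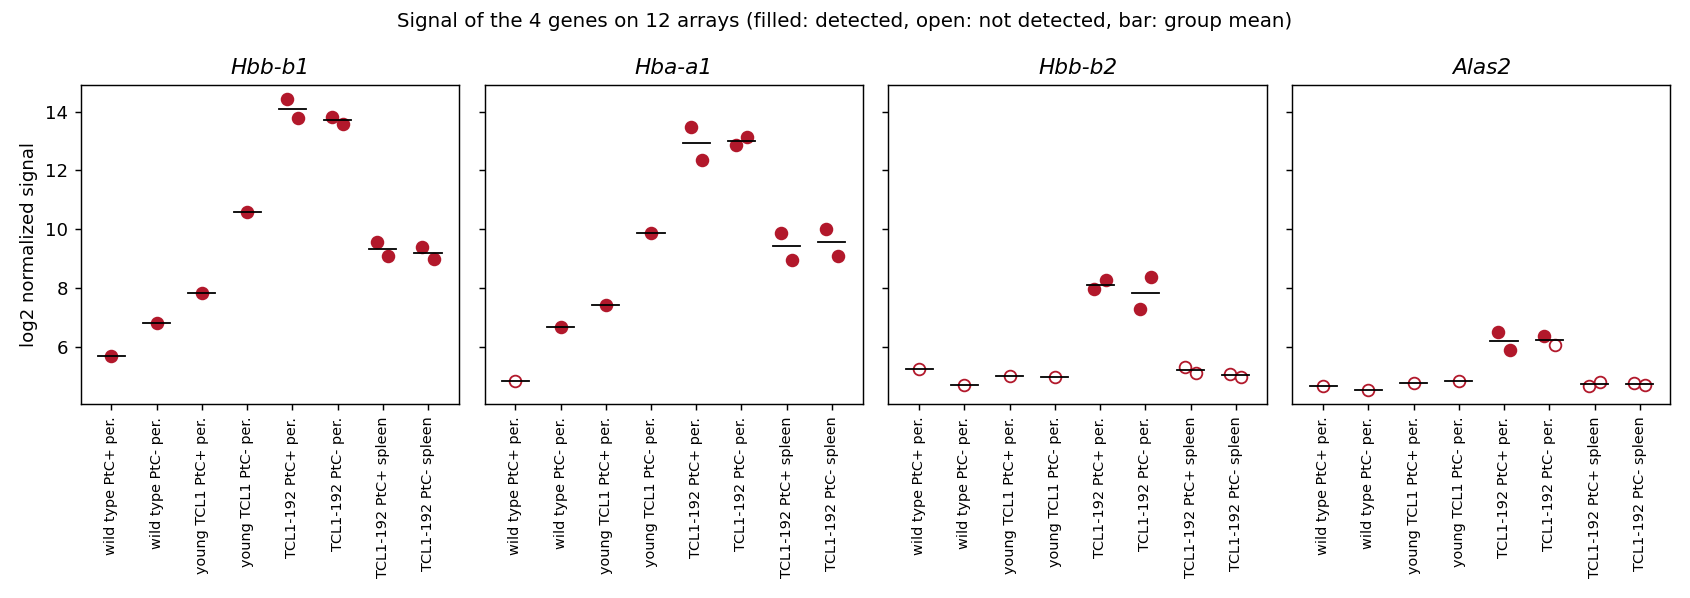
Normalized log2 signal of Hbb-b1, Hba-a1, Hbb-b2 and Alas2 on each of the 12 arrays by group, with filled points for detected values, open points for undetected ones and a bar at the group mean. All 4 genes were highest in TCL1-192 peritoneum, and Hbb-b2 and Alas2 were undetected outside it.

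Hba-a1 too was lowest in wild type and highest in peritoneal TCL1-192 cells. Its signal was 13130 and 5607 on the PtC+ and 6893 and 9810 on the PtC- peritoneal TCL1-192 arrays. In the spleen it was 1142 and 556.8 in PtC+ and 1214 and 715.7 in PtC- cells, below every peritoneal TCL1-192 array. The splenic replicate 1 arrays thus lay above, and the replicate 2 arrays below, the young TCL1 PtC- array (1023). In wild type cells it was 186.2 in PtC- and, undetected, 111.3 in PtC+ cells, and in young TCL1 cells it was 1023 in PtC- and 247.8 in PtC+ cells. Detection thus ran from 1 of 2 wild type arrays to every young TCL1 and TCL1-192 array. Group means on the log2 scale were 12.92 ± 0.8 and 12.99 ± 0.21 (SD, n = 2 each) in PtC+ and PtC- peritoneal TCL1-192 cells, and 9.43 ± 0.65 and 9.55 ± 0.66 (SD, n = 2 each) in the spleen.

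Hbb-b2 was detected only on the 4 peritoneal TCL1-192 arrays, at signals of 311.2 and 335.9 in PtC+ and 227.9 and 537.7 in PtC- cells. On the other 8 arrays it was undetected, at 92.81 to 130.2. Its log2 means in peritoneal TCL1-192 cells were 8.13 ± 0.23 in PtC+ and 7.84 ± 0.76 in PtC- cells (SD, n = 2 each). The highest signal, 537.7, came from the array with raised background.

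Alas2, the enzyme among the 4, was detected on 3 arrays, all of peritoneal TCL1-192 cells. Its signals there were 171.2 and 136.4 in PtC+ cells and 157.3 in PtC- replicate 1. PtC- replicate 2 read 308 but was not detected (detection p of 0.0759), since undetected probes averaged 205.4 on that array. The other 8 arrays gave 81.15 to 106.6, none of them detected. Log2 means in the peritoneum were 6.21 ± 0.44 in PtC+ and 6.22 ± 0.22 in PtC- cells (SD, n = 2 each).

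The spleen was set against the peritoneum in TCL1-192 cells because the series compares leukaemia cells of these tissues for signatures of response to self antigen. All 4 genes had a lower mean in the spleen. Hbb-b2 and Alas2 had passed the filter on detection only through peritoneal TCL1-192 arrays. Hbb-b1 averaged 9.26 in the spleen and 13.9 in the peritoneum on the log2 scale, a difference of -4.64 ± 0.21 (SE), or 24.9-fold. Hba-a1 averaged 9.49 and 12.96, a difference of -3.47 ± 0.35 (SE), or 11.1-fold. Because Hbb-b2 and Alas2 were not well above background in the spleen, their splenic values were raised to the lowest detected value of each array. Hbb-b2 was then at least 5.38-fold lower. Alas2 was 1.58-fold lower, which is no strict bound. It was detected on 3 of 4 peritoneal arrays, and its undetected value there entered as measured. Over all genes 26.7% passed the limma test in this contrast (adjusted p under 0.05), 15.5% higher and 11.1% lower in the spleen, and the median difference was -0.02. Since the 4 genes were picked with this contrast known, nothing is read from that comparison.

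Without the array with raised background the log2 differences were -4.69 for Hbb-b1 and -3.39 for Hba-a1, while Hbb-b2 was at least 4.46-fold and Alas2 at least 1.67-fold lower. In the authors' normalized table the measured differences of Hbb-b2 and Alas2, which rest on undetected splenic values, were -1.52 and -0.72. In bulk samples such as these, fewer cells of a type and less RNA per cell cannot be told apart.

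Between genotypes in the peritoneum, the mean of TCL1-192 cells exceeded that of wild type cells for all 4 genes. The difference was 7.64 ± 0.25 log2 units (SE) for Hbb-b1, or 200-fold, and 7.19 ± 0.43 (SE) for Hba-a1. Since Hba-a1 was detected on 1 of 2 wild type arrays, its fold is a bound of at least 114-fold, with the undetected value at that array's detection limit. Neither Hbb-b2 nor Alas2 was detected in wild type cells, and with these values at the limit Hbb-b2 was at least 5.47-fold higher. Alas2 was 1.61-fold higher, no strict bound, as an undetected peritoneal TCL1-192 value entered as measured. Without the array with raised background Hbb-b1 differed by 7.70 log2 units, and Hba-a1 was at least 109-fold, Hbb-b2 at least 4.54-fold and Alas2 at least 1.7-fold higher. In the authors' normalized table the measured differences were smaller, at 6.45, 5.76, 1.63 and 0.86 log2 units for Hbb-b1, Hba-a1, Hbb-b2 and Alas2, the last 3 with undetected wild type values among them. Over all genes 27.4% passed the test in this contrast, 11.8% higher and 15.6% lower, from which nothing is read for the 4 genes.

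Young TCL1 cells lay between the other genotypes for the abundant globins. Hbb-b1 exceeded wild type by 2.95 ± 0.29 log2 units (SE, 7.73-fold) and Hba-a1 by 2.88 ± 0.49 (SE, at least 5.78-fold with the undetected wild type value at the limit), and for each the 2 young TCL1 arrays lay above the 2 wild type arrays. Hbb-b2 and Alas2 were undetected in both, so no fold is given. TCL1-192 cells in turn exceeded young TCL1 cells 25.8-fold for Hbb-b1 (4.69 ± 0.25 log2 units, SE) and 19.8-fold for Hba-a1 (4.31 ± 0.43, SE). The excess was at least 5.6-fold for Hbb-b2 and 1.65-fold, again no strict bound, for Alas2. Without the array with raised background these 4 folds were 26.9-fold, 18.8-fold, at least 4.65-fold and at least 1.74-fold. Over all genes 1.52% passed the test between young TCL1 and wild type and 19.7% between TCL1-192 and young TCL1. These contrasts share arrays with those that chose the genes and with each other, so they too are descriptions.

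The 11 probes named Hbb-b1 did not all behave alike. With the probe used above, 9 others correlated at 0.95 to 1 over the 12 arrays, while ILMN_1228877 correlated at -0.704. ILMN_1228877 was detected on 2 arrays and stayed between 4.98 and 5.76 log2 units, whereas the probe used ran from 5.69 to 14.41. Of the other 10 probes 9 were detected on every splenic array, and they were 24.9-fold to 58.9-fold lower in the spleen than in the peritoneum, with the probe used at the low end. Against wild type the 2 probes detected on both wild type arrays were 179-fold and 200-fold higher in TCL1-192 cells. The other 8 missed 1 or both wild type arrays, and with undetected values at the limit they were at least 26.2-fold to at least 225-fold higher. ILMN_1228877 differed by 0.26 and -0.48 log2 units in these contrasts. In young TCL1 cells all 10 lay above wild type, by at least 0.32 to at least 3.07 log2 units with undetected wild type values at the limit, and ILMN_2544056, the lowest of them, was detected on 1 of 2 young TCL1 arrays.

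**Figure D2:**
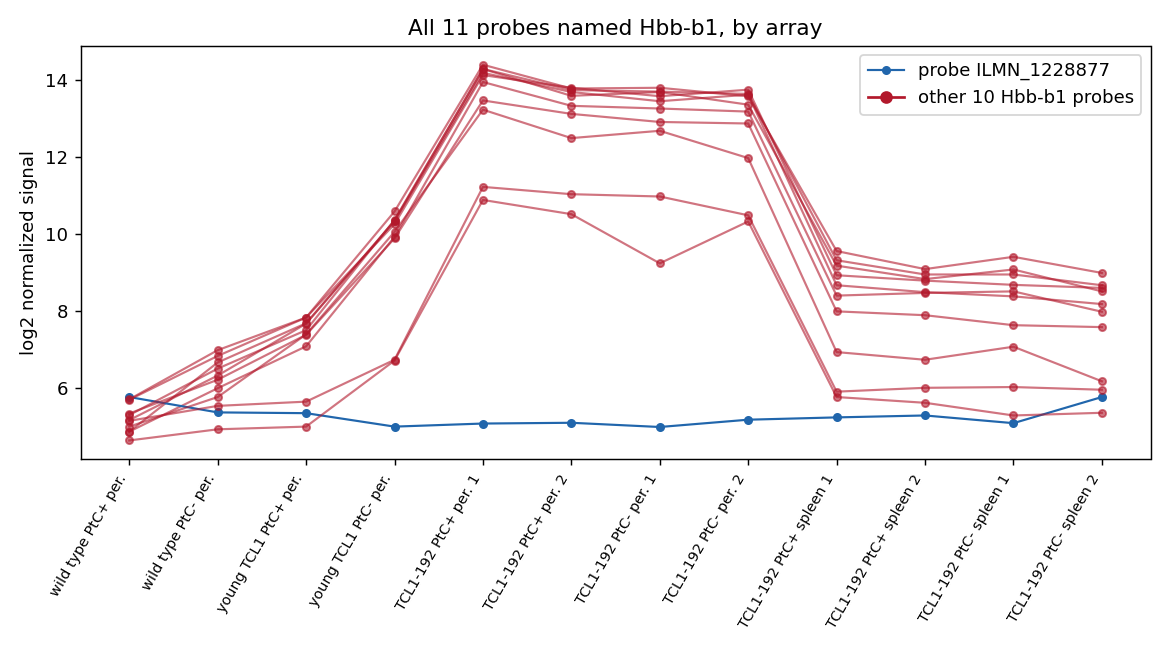
Normalized log2 signal of all 11 Hbb-b1 probes on each array, with lines joining the values of a probe and ILMN_1228877 in blue. The 10 red probes rise and fall together, between 4.63 and 14.41, and the blue probe stays between 4.98 and 5.76.

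PtC binding had not been used to pick the 4 genes, so it was tested, over 4 PtC+ and 4 PtC- arrays of TCL1-192 cells with limma. None of the 4 genes passed. PtC+ minus PtC- was 0.26 ± 0.21 log2 units (SE, 95% interval -0.22 to 0.74, adjusted p = 0.67) for Hbb-b1 and 0.23 ± 0.24 (SE, interval -0.34 to 0.81, adjusted p = 0.74) for Hbb-b2. It was -0.1 ± 0.35 (SE, interval -0.92 to 0.72, adjusted p = 0.93) for Hba-a1 and -0.01 ± 0.17 (SE, interval -0.42 to 0.41, adjusted p = 0.99) for Alas2. The intervals thus leave room for a difference of either sign. Hbb-b2 was detected on 2 of 4 PtC+ and 2 of 4 PtC- arrays, and Alas2 on 2 of 4 and 1 of 4. None of these was splenic, so the splenic part of both estimates compares background values. Without the array with raised background the values were 0.2 (adjusted p = 0.71), 0.5 (0.37), -0.03 (0.98) and -0.08 (0.88) for Hbb-b1, Hbb-b2, Hba-a1 and Alas2. Over all genes 0% passed by limma, while 1129 of 13190 had an unadjusted p under 0.05. Without PtC- peritoneal replicate 1 the test passed 1533 genes, none of the 4 among them.

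Whether the PtC difference itself differed between spleen and peritoneum was tested as an interaction. The values for spleen minus peritoneum were -0.28 ± 0.41 (SE) for Hbb-b1, -0.12 ± 0.49 for Hbb-b2, -0.06 ± 0.69 for Hba-a1 and 0.01 ± 0.35 for Alas2, with limma adjusted p of 0.79 to 0.99. Without the array with raised background they were -0.17, -0.66, -0.2 and 0.17, with adjusted p of 0.35 to 0.9. No gene of the 13190 passed this test by limma, against 1520 with an unadjusted p under 0.05. For Hbb-b2 and Alas2 the splenic side of the interaction rests on undetected values.

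In wild type and young TCL1 cells the PtC+ array lay below the PtC- array for both abundant globins. PtC+ minus PtC- was -1.14 log2 units for Hbb-b1 in wild type cells (5.69 against 6.83) and -2.76 in young TCL1 cells (7.83 against 10.59), or 2.2-fold and 6.79-fold lower. For Hba-a1 it was -1.85 in wild type cells (4.84, undetected, against 6.69) and -2.44 in young TCL1 cells (7.43 against 9.87). Peritoneal TCL1-192 arrays matched by number gave 0.6 and 0.2 for Hbb-b1 and 0.64 and -0.78 for Hba-a1. The labels do not say that arrays of the same number share an animal. Between the 2 groups Hbb-b1 differed by 0.4 ± 0.29 log2 units (SE, 95% interval -0.28 to 1.08), and the groups overlapped. The sign for Hbb-b1 in TCL1-192 peritoneum is thus not settled.

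**Figure D3:**
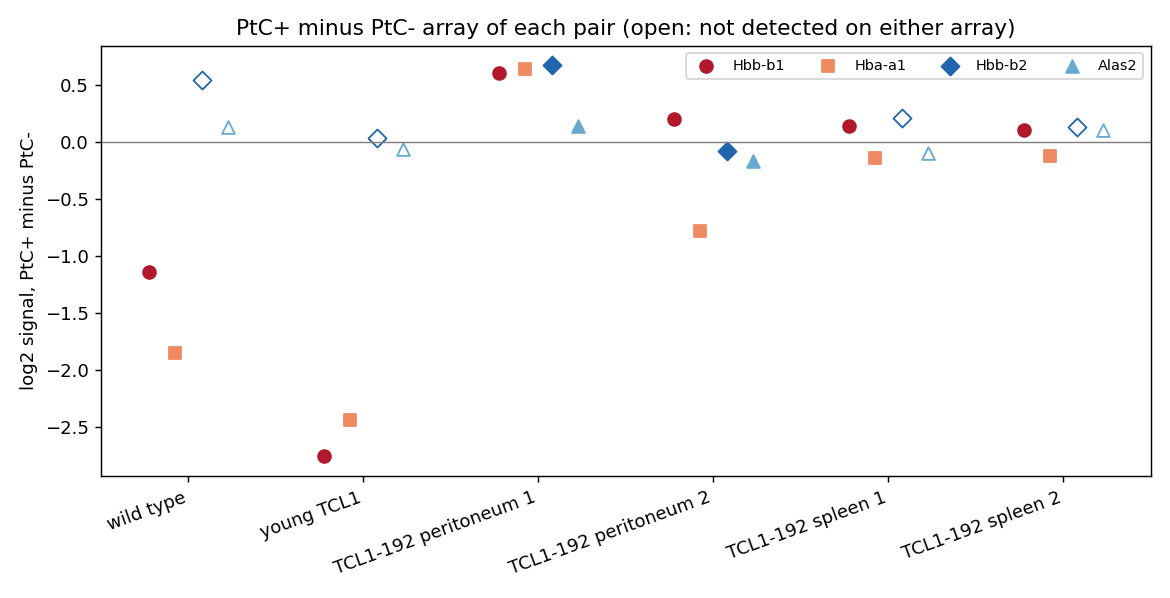
Difference in log2 signal between the PtC+ and the PtC- array of each pair, with open symbols where neither array detected the gene. TCL1-192 arrays were matched by number only, which the labels do not tie to an animal. Hbb-b1 and Hba-a1 lie below 0 in wild type and young TCL1 cells, at -2.76 to -1.14, while Hbb-b1 lies at 0.1 to 0.6 in the 4 TCL1-192 pairs.

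After these values had been seen, the peritoneal PtC difference in TCL1-192 cells was set against its mean in wild type and young TCL1 cells with limma. The contrast was 2.35 ± 0.41 log2 units (SE, interval 1.39 to 3.32) for Hbb-b1, with an adjusted p of 0.07 and an unadjusted p of 0.000664. For Hba-a1 it was 2.07 ± 0.69 (SE, interval 0.44 to 3.71, adjusted p = 0.21). Neither passed after adjustment over 13190 genes, of which 0.69% did. Without the array with raised background the contrast was 2.24 for Hbb-b1 and 2.22 for Hba-a1. Without PtC- peritoneal replicate 1 Hbb-b1 also passed, at 2.47 (adjusted p = 0.0068). With each of the 8 TCL1-192 arrays left out in turn, Hbb-b1 gave 2.04 to 2.66. Each such fit leaves 1 array in a group, so no call is drawn from it. With all arrays Hbb-b1 passed under 6 of 8 other settings, at 1.83 to 3.12 (adjusted p of 0.0065 to 0.045), among them the authors' normalized table and the replicate block, and Hba-a1 passed with median centring (2.86, adjusted p = 0.03). All 10 concordant Hbb-b1 probes gave 1.14 to 2.58, against -0.38 for ILMN_1228877.

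The other globin genes did not pass the test. Of 12 globin symbols listed, 8 were on the array and 5 were tested, of which 2 were not among the genes above. Hbb-bh1, an embryonic beta-type globin gene, differed by -0.23 ± 0.24 log2 units (SE, limma adjusted p = 0.51) between spleen and peritoneum, and by 0.59 ± 0.29 (adjusted p = 0.18) between TCL1-192 and wild type. Hbq1b, a theta globin gene (F830116E18Rik on the array), was detected on 2 of 12 arrays and differed by -0.1 and 0.42 in these contrasts (adjusted p of 0.79 and 0.32).

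The enzymes of haem synthesis other than Alas2 did not pass either, 0 of 7 tested, beside 26.7% of all genes between tissues and 27.4% between genotypes. Alas1, which encodes the synthase of most cells, was detected on every array and averaged 10.79 log2 units in the spleen and 10.9 in the peritoneum (difference -0.11 ± 0.12, SE, limma adjusted p = 0.51). Alad, which makes porphobilinogen, differed by -0.31 (adjusted p = 0.092), Uros by -0.05, Urod by -0.06 and Ppox by -0.19. The lowest adjusted p, 0.059, was that of Cpox, which acts in the mitochondrion, at -0.77 ± 0.25 (SE) and undetected in the spleen. Fech, which inserts the iron, differed by -0.89 ± 0.42 (SE, adjusted p = 0.17). The median of the 7 was -0.19, beside -0.02 over all genes.

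Between TCL1-192 and wild type the 7 enzymes had a median difference of 0.39, beside 0.03 over all genes. Cpox differed by 0.93 ± 0.3 (SE, limma adjusted p = 0.06), Uros by 0.78 ± 0.27 (adjusted p = 0.075) and Fech by 0.97 ± 0.52 (adjusted p = 0.21). Alas1 differed by 0.24, Urod by 0.39, Ppox by 0.34 and Alad by -0.12, none of them past the threshold.

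**Figure D4:**
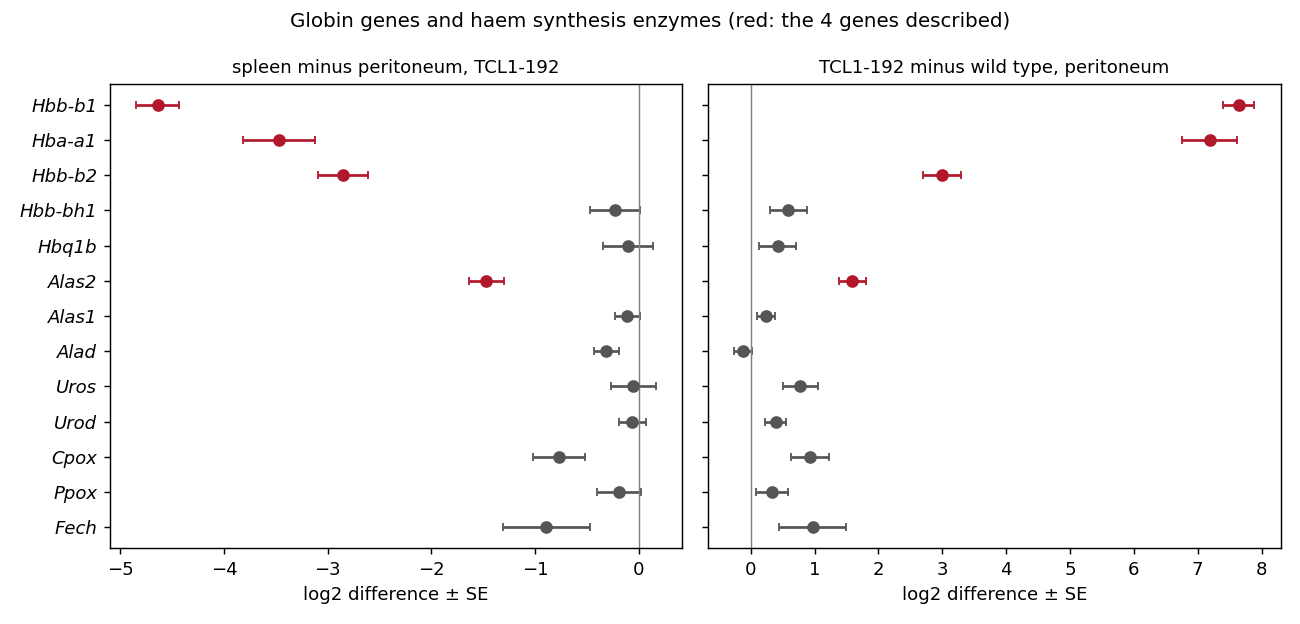
Log2 difference with its SE for the tested globin genes and haem synthesis enzymes, spleen minus peritoneum in TCL1-192 cells (left) and TCL1-192 minus wild type in the peritoneum (right), on separate scales. The 4 genes described, in red, lie at -4.64 to -1.47 and 1.59 to 7.64, and the other 9 lie between -0.89 and 0.97.

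Of 13 genes that move haem and iron through the mitochondrion, 2 were higher and 2 lower in the spleen (30.8%, near the 26.7% of all genes, so the count says nothing of the list). Slc25a37 (mitoferrin 1, which carries iron into the mitochondrion) was higher in the spleen by 1.17 ± 0.21 (SE, limma adjusted p = 0.0074) and Slc48a1, a haem transporter, by 0.49 (adjusted p = 0.03). Among the lower genes was Glrx5, which acts in iron-sulfur assembly, at -0.71 (adjusted p = 0.031). With 1 TCL1-192 array left out in turn, Slc25a37 passed in 8 of 8 fits, Glrx5 in 4 and Slc48a1 in 2. Between TCL1-192 and wild type 2 of 13 passed (15.4%, beside 27.4% of all genes), both higher, among them Tmem14c, which takes part in porphyrin import, by 0.7 (adjusted p = 0.018, 8 of 8 fits).

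Of 14 genes of haem breakdown and iron handling, 2 passed as higher in the spleen (14.3%, beside 26.7% of all genes). These were Blvrb, a biliverdin reductase, by 0.55 (limma adjusted p = 0.03) and the transferrin receptor gene Tfrc by 0.42 (adjusted p = 0.045), in 3 and 1 of 8 fits with an array left out. Between TCL1-192 and wild type 3 were higher and 3 lower (42.9%, beside 27.4%). Blvrb rose by 2.35 ± 0.18 (SE, 5.09-fold, adjusted p = 0.00014), from 10.48 to 12.82 log2 units, and passed in 8 of 8 fits. Slc11a1, an iron transporter of phagocytes, was lower, at -1.3 (adjusted p = 0.012), as was Bach1, which encodes a haem-binding repressor, at -1.55 (adjusted p = 0.019). They passed in 8 and 6 of 8 fits. Cd163, the macrophage receptor for haemoglobin bound to haptoglobin, was undetected in peritoneal TCL1-192 cells and detected on 1 of 2 wild type arrays, at -0.63 (adjusted p = 0.027, 5 of 8 fits). Its sign turned, to 0.24, with undetected values set at the detection limit.

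Of 9 erythroid transcription factor genes tested, 22.2% passed between the tissues and 33.3% between TCL1-192 and wild type, beside 26.7% and 27.4% of all genes. Cbfa2t3 (Cbfa2t3h on the array, a corepressor of GATA1 and TAL1 complexes) was higher in the spleen by 1.21 ± 0.19 (SE, limma adjusted p = 0.0053). Lmo2, a bridging protein of the same complexes that many blood cells express, was lower by 0.83 ± 0.15 (adjusted p = 0.0088). Between TCL1-192 and wild type Lmo2 was higher by 1.41 (adjusted p = 0.0021), and Cbfa2t3 (-1.89, adjusted p = 0.0016) and Nfe2 (-1.53, adjusted p = 0.019) were lower. With an array left out in turn, the tissue differences were 1.07 to 1.35 for Cbfa2t3 and -0.95 to -0.71 for Lmo2. Those against wild type were 1.36 to 1.46 for Lmo2, -2.03 to -1.75 for Cbfa2t3 and -1.8 to -1.26 for Nfe2. The stricter filter, detection on at least 6 arrays, dropped Nfe2. Tal1 and Sox6 were undetected on every array, and Gata1 was detected on 1.

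Of 20 red cell membrane and skeleton genes on the array 8 were tested, and 1 was higher and 2 lower in the spleen (37.5%, beside 26.7% of all genes). Spnb1, which encodes a beta spectrin also found outside red cells, was higher by 2.98 ± 0.32 (SE, limma adjusted p = 0.0012), detected on 4 of 4 splenic and 1 of 4 peritoneal arrays. The potassium channel gene Kcnn4 (-0.72, adjusted p = 0.026) and the glycophorin gene Gypc (-0.48, adjusted p = 0.047) were lower, in 3 and 1 of 8 fits with an array left out. Between TCL1-192 and wild type the glucose transporter gene Slc2a1 (-1.06, adjusted p = 0.0058) and Gypc (-0.59, adjusted p = 0.045) were lower (25%, beside 27.4%), in 8 and 2 of 8 fits. Of 8 other erythroid genes tested 2 were lower in the spleen (25%, beside 26.7%), among them Bnip3l, which encodes a mitophagy receptor of maturing red cells and other tissues, at -1.32 ± 0.17 (SE, adjusted p = 0.0026). No gene of the 8 passed between TCL1-192 and wild type, beside 27.4% of all genes. In the young TCL1 comparison with wild type no gene of the 6 lists other than the globins, nor either of the other globins, passed. Over all genes 1.52% did, so this says nothing of the lists.

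Most markers of red cell precursors were undetected. Of 15 such markers 10 were undetected on all 12 arrays, among them Slc4a1, Epb4.2, Ahsp, Kel, Ermap, Car1, Trim10 and Hemgn. Klf1 and Rhag were detected on 5 arrays each, Epor on 3, Ank1 on 2 and Gata1 on 1. Klf1 was detected on both PtC+ peritoneal TCL1-192 arrays (6.38 and 5.94 log2 units) and on neither PtC- one (5.05 and 4.83). Its other detected values were 5.52 and 5.62 on the PtC+ and PtC- splenic replicate 1 arrays and 5.63 on young TCL1 PtC-. The number detected was 0 to 3 in peritoneal TCL1-192, 0 to 2 in splenic TCL1-192, 0 to 3 in wild type and 1 in each young TCL1 array. Their summed signal was 455.2 to 602.2 in peritoneal TCL1-192, 501.1 to 527.6 in splenic TCL1-192, 490.7 to 495.7 in wild type and 496.5 to 497.2 in young TCL1 arrays. By array the peritoneal TCL1-192 sums were 553.4 and 602.2 in PtC+ cells, and 455.2 and 574.3 in PtC- cells. The lowest of these, of PtC- replicate 1, lay below every array of the other groups, and the rest lay above them. The ranges of the TCL1-192 tissues thus overlapped through that array only. These sums are of mostly undetected values, so they are not set against the 4 genes.

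**Figure D5:**
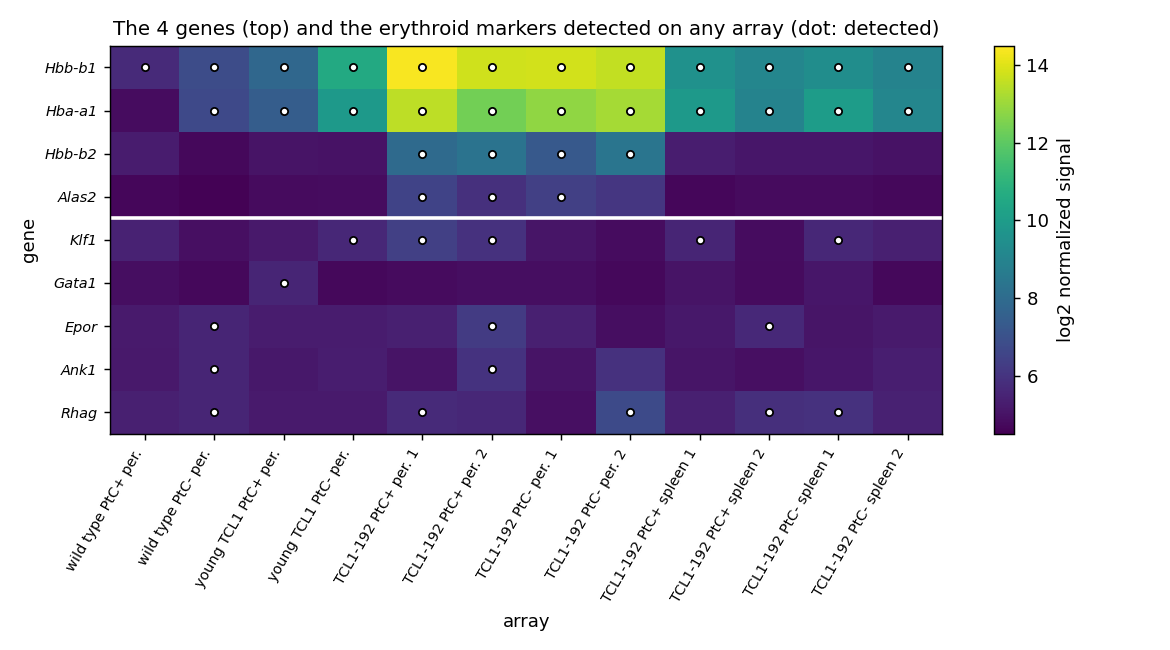
Normalized log2 signal (colour) of the 4 genes, above the white line, and of the 5 erythroid markers detected on at least 1 array, with a dot where the gene was detected. The highest value is 14.41 among the 4 genes and 6.75 among the markers. The source of the globin signal was not tested.

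Markers of other cells moved with the tissue. Of 17 macrophage markers 10 to 12 were detected in peritoneal TCL1-192 cells, at a summed signal of 8626 to 16590, and 2 or 3 in the spleen, at 1733 to 1884. In wild type cells 12 or 13 were detected, at 21600 to 29050, and in young TCL1 cells 10 or 13, at 19370 to 21010. Within TCL1-192 cells macrophage signal and Hbb-b1 were both higher in the peritoneum than in the spleen. Across genotypes the wild type arrays had the highest macrophage signal and the lowest Hbb-b1. The summed signal of 11 platelet and megakaryocyte markers was 490 to 725.3 in peritoneal and 331.3 to 386.1 in splenic TCL1-192 cells, against 1099 to 1540 in wild type and 1609 to 1715 in young TCL1 cells. For 12 neutrophil markers the ranges were 373.2 to 395.7 and 407.5 to 750.5 in peritoneal and splenic TCL1-192, 417.3 to 434.7 in wild type and 352.9 to 427.8 in young TCL1 cells. For 10 T cell markers they were 1197 to 1310, 828.9 to 921.1, 1424 to 1910 and 733.4 to 2737. The part of these cells in the globin values was not tested.

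Across the 12 arrays the 4 genes were alike. This is a description with no test, since arrays of a group share genotype and tissue and these differences were known when the genes were picked. Pearson's r was 0.981 between Hbb-b1 and Hba-a1, 0.936 between Hbb-b2 and Alas2, 0.913 between Hbb-b1 and Alas2 and 0.883 between Hbb-b1 and Hbb-b2. It was 0.853 between Hba-a1 and Alas2 and 0.821 between Hbb-b2 and Hba-a1. Outside the lists the genes most like Hbb-b1 were Gtf3a (0.981), Rhebl1 (0.967), Tmem42 (0.961), 2410075B13Rik (0.961), Cib2 (0.959) and Tmprss13 (0.959). Those most like Alas2 were Ebf3 (0.97), 2010300C02Rik (0.969), Tspan3 (0.967), Cpm (0.967), LOC100044948 (0.963) and D4Bwg1540e (0.96). Of these Ebf3 was detected on 5 arrays, 2010300C02Rik on 4 and Cpm on 6, and the rest on all 12. Gtf3a averaged 12.05 log2 units in peritoneal TCL1-192, 11.32 in splenic TCL1-192, 11.2 in young TCL1 and 10.71 in wild type cells, a far narrower span than that of Hbb-b1.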

How the data were processed

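Total RNA of mouse cells went through Trizol, a QIAGEN RNeasy kit and DNase I, and was amplified to biotin-labelled cRNA (Ambion MessageAmp), per the labels' protocols. The authors' deposited non-normalized table gave a signal intensity for 45281 probes on 12 arrays and, per the file headers, a detection p-value for each. Their second deposited table gave intensity values with equal quantiles on every array (medians of 119.2 to 119.3). No source used here names the software.

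The signals were analysed in R 4.3.3 with limma 3.58.1: background was corrected with controls inferred from the detection p-values (offset 16), followed by quantile normalization and log2. Probes detected (p under 0.05) on at least 2 arrays were kept (18100), with the probe of the highest mean for each symbol (13190 genes). A model with 1 mean for each of 8 groups (4 residual degrees of freedom) gave all contrasts. For the lone wild type and young TCL1 arrays the spread of the TCL1-192 groups was taken. Tests were two-sided, moderated by empirical Bayes, with Benjamini-Hochberg adjustment over all genes and a threshold of 0.05. The script was tested on simulated data.

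The 4 genes and the gene lists were chosen with earlier results of these data known. Named genes were the 4 genes, every measured globin gene and haem synthesis enzyme, up to 4 called members of every other list by moderated t, and the 6 genes most like Hbb-b1 and Alas2. Alternatives were another background and scaling step, the authors' normalized table, a stricter filter and none, the mean of probes, undetected values at the detection limit, an intensity trend, a replicate block and each TCL1-192 array left out. Promoter sequences were those of RefSeq (GRCm38.p6). Some members of the lists are not reported here.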

Additional observations from a re-analysis of the deposited data

Results flagged for a closer look

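The difference between PtC+ and PtC- cells in Hbb-b1 was set aside for a closer look because its measured sign differed between the genotypes. In the peritoneum it was negative in wild type (-1.14) and young TCL1 cells (-2.76). In TCL1-192 it was 0.6 and 0.2 with arrays matched by number, which are not known to share an animal. Between the TCL1-192 groups, which overlapped, it was 0.4 (95% interval -0.28 to 1.08), so a positive sign there is not settled. The contrast between TCL1-192 and the other genotypes was 2.35 log2 units, with a limma adjusted p of 0.07. With 1 TCL1-192 array left out in turn it was 2.04 to 2.66. It passed under 6 of 8 other settings with all arrays, at 1.83 to 3.12 log2 units and limma adjusted p of 0.0065 to 0.045. These settings reuse the same arrays and add no separate support. The wild type and young TCL1 values rest on 1 array of each kind, and the contrast was chosen after the values had been seen.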

How the results depend on the processing

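The 4 genes kept their direction between spleen and peritoneum and between TCL1-192 and wild type under every alternative that could be run. With each TCL1-192 array left out, spleen minus peritoneum was -4.79 to -4.48 for Hbb-b1, -3.75 to -3.18 for Hba-a1, -3.12 to -2.58 for Hbb-b2 and -1.62 to -1.32 for Alas2. TCL1-192 minus wild type was 7.49 to 7.80, 6.91 to 7.47, 2.73 to 3.27 and 1.44 to 1.75 in the same order. In the authors' normalized table TCL1-192 minus wild type was 6.45, 5.76, 1.63 and 0.86, and spleen minus peritoneum was -1.52 for Hbb-b2 and -0.72 for Alas2. The mean of probes gave 6.57 for Hbb-b1 against wild type. With undetected values at the detection limit, Hbb-b2 differed by -2.43 and 2.45 and Alas2 by -0.76 and 0.79, which follows from the raised floor.

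For PtC+ minus PtC- no gene of the 4 passed under any alternative, though signs turned. Hba-a1 gave 0.26 with median centring, and 0.13 without PtC- splenic replicate 1, 0.18 without PtC+ peritoneal replicate 2 and 0.13 without PtC+ splenic replicate 2. Alas2 gave 0 with median centring and in the authors' table, and 0.07, 0.02, 0.01 and 0.15 without PtC- peritoneal 1, PtC+ splenic 1, PtC- splenic 1 and PtC+ peritoneal 2. Hbb-b2 gave -0.04 without PtC- peritoneal 1. Over all arrays left out in turn the ranges were 0.11 to 0.42 for Hbb-b1, -0.04 to 0.5 for Hbb-b2, -0.38 to 0.18 for Hba-a1 and -0.16 to 0.15 for Alas2. The contrast of PtC differences between genotypes passed for Hbb-b1 with median centring (3.12, adjusted p = 0.0065), in the authors' table (1.83, 0.019), with the mean of probes (1.94, 0.043), with undetected values at the limit (2.35, 0.045), with an intensity trend (2.35, 0.0076) and with the replicate block (2.35, 0.021). Leaving arrays out gave 2.04 to 2.66 for Hbb-b1 and 1.51 to 2.64 for Hba-a1, which passed with median centring (2.86, adjusted p = 0.03). The cause was not tested.

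Counts of genes moved more. Between young TCL1 and wild type 201 genes passed, against 124 with median centring, 384 in the authors' table, 83 with detection on at least 6 arrays and 355 with an intensity trend. For the contrast of PtC differences 91 passed, against 385, 1 and 460 in the authors' table, with the stricter filter and with the trend. Leaving out an array gave 1817 to 5953 (main 3516) for spleen against peritoneum, 2521 to 6048 (3613) for TCL1-192 against wild type, 1640 to 5328 (2594) against young TCL1, 59 to 504 (201) for young TCL1 against wild type, 0 to 1533 for PtC, 0 to 1644 for its tissue interaction and 44 to 2250 (91) for the contrast of PtC differences. The highest of each came without PtC- peritoneal replicate 1, for young TCL1 against wild type also without its replicate 2, and the cause was not tested. With median centring the median over genes went from -0.02 to 0.24 for spleen minus peritoneum and from 0.03 to -0.23 for TCL1-192 minus wild type. The genes called higher and lower went from 2051 and 1465 to 2695 and 350, and from 1561 and 2052 to 499 and 2309. Against young TCL1 they went from 1047 and 1547 to 346 and 1886.

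Between spleen and peritoneum the haem synthesis enzymes called went from 0 to 1 in the authors' table, with no filter and with the replicate block, and to 2 with the trend (0 to 2 with an array left out). Transport genes went from 4 to 2 with median centring and 7 with the trend (1 to 5). Breakdown and iron genes went from 2 to 1 with median centring, 5 in the authors' table, 4 with no filter and 5 with the trend (0 to 6). Transcription factors (2 to 3 with an array left out) and other erythroid genes (2 in each) went from 2 to 1, and membrane genes (1 to 6) from 3 to 1, with median centring. The other globins stayed at 0. Cd163 turned to 0.24 (against wild type) and 0.11 (against young TCL1) at the detection limit.

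The labels do not say that arrays of the same number share an animal or a day, and their deviations correlated at 0.031 to 0.241, so they were not taken as pairs. With the replicate block the PtC difference of Hbb-b1 was 0.26 ± 0.12 (SE, adjusted p = 0.48), and no call on the 4 genes changed in the planned PtC test. The stricter filter dropped Hbb-b2 and Alas2, and a block for the array chip was not run, as the files name none. Hbb-b2 and Alas2 lay near background, which limits their folds to bounds, and the differences given above for them are measured values, not bounds.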
